A study of Homo sapiens with 13 samples.

Results

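The genes described here are 34 genes of the ATF4 and amino acid response, chosen by symbol from a list and read from the table of counted reads by their Ensembl identifiers. They were 34 of the 43836 genes in the table, and all 34 passed the filter on low counts, as did 17092 genes in all. All groups came from hFOB 1.19, a human fetal osteoblast line that is 1 clone and carries a temperature-sensitive viral T antigen, and polyadenylated RNA was sequenced. The positive controls (PC, 2 libraries) had 10% fetal bovine serum in their medium, while the negative controls (NC, 2 libraries) had none, and both received DMSO, the vehicle. Serum-starved cells received resveratrol (RES, 3 libraries), peonidin-3-O-glucoside, an anthocyanin (POG, 3 libraries), or the agent labelled DEG (2 libraries), each at 1 µg/mL. The labels did not spell out DEG. Their treatment text names a delphinidin glucoside beside the other compounds without tying it to the abbreviation. The DEG sample numbered 3 was not analysed here.

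Each library held between 38464619 and 51416358 counted reads. Levels are given in CPM, a gene's reads per 1000000 reads of a library total scaled by TMM (trimmed mean of M values). Of 9 markers of osteoblasts, 7 passed the filter, with COL1A1 between 2463 and 2868 CPM in every library. RUNX2 lay between 44.3 and 51.6 CPM, ALPL between 3.22 and 6.66, SPP1 between 0.954 and 2.34, and BGLAP between 0.425 and 2.00. SP7 and IBSP had at most 8 reads and 1 read in a library. Of 11 markers of other cell types, 5 passed. Among those that define blood, endothelial and fat cells, PTPRC, CDH5 and ADIPOQ had at most 7, 5 and 1 reads, while CD68, PECAM1 and PPARG, which mark the same cell types less strictly, reached 24, 110 and 613 reads. PECAM1, a cell adhesion molecule, moved with the groups, from a mean of 2.29 CPM in NC to 1.57 in PC (log2 fold change −0.54, edgeR FDR 0.0323), 1.22 in POG (−0.91, edgeR FDR 1.37e-04) and 1.37 in DEG (−0.74, edgeR FDR 0.0150), while RES gave 2.12 CPM and no call (−0.11, edgeR FDR 0.823). Its part in the results was not tested. The summed level of the osteoblast markers was 5262 to 5319 CPM in NC, 5460 to 5522 in PC, 4905 to 5033 in RES, 4749 to 4785 in POG and 4761 to 4768 in DEG, and its part in the results was not tested. Most of this sum came from COL1A1, COL1A2 and SPARC. Against NC, 2 of the 7 markers were called higher in PC, and 1, 3 and 3 lower in RES, POG and DEG. That is 28.6%, 14.3%, 42.9% and 42.9%, beside 42.4%, 11.2%, 14.6% and 9.64% of all tested genes. ALPL rose by 0.70 on the log2 scale in PC (edgeR FDR 1.62e-06). COL1A2 changed by −0.16 in RES, −0.27 in POG and −0.26 in DEG. SPP1, with few reads, changed by −0.81 in POG and −0.77 in DEG. Their part in the results was not tested. The summed level of the markers of other cell types was 12.5 to 14.5 CPM in NC, 14.1 to 15.3 in PC, 12.6 to 13.5 in RES, 10.3 to 12.9 in POG and 12.5 to 13.3 in DEG, mostly from PPARG and PECAM1. In bulk RNA, fewer cells that express a gene and less of its RNA per cell cannot be told apart.

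As background, cells that lack an amino acid or are otherwise stressed phosphorylate the translation factor eIF2, which slows most protein synthesis but allows the ATF4 messenger RNA to be translated. ATF4 protein then pairs with C/EBP factors and switches on genes for amino acid uptake, synthesis and charging of tRNA, together with regulators that restrain the response. In osteoblasts ATF4 is known for supporting amino acid import and the synthesis of collagen. Because ATF4 is controlled largely at translation, its messenger level, which is what was measured here, does not show how much protein was made.

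Per kilobase of transcript, ATF4 itself stood highest of the 34 genes, at a mean of 230.3 CPM per kilobase over the 12 libraries. CEBPB, a partner of ATF4, followed at 159 CPM per kilobase, and DDIT4, an inhibitor of mTORC1 signaling, at 96.5. The amino acid transporters SLC38A2, SLC3A2 and SLC1A5 had 77.6, 67.9 and 63.2 CPM per kilobase. At the low end stood ASNS, which makes asparagine, at 6.17, CHAC1, which breaks down glutathione, at 3.52, and NUPR1, a stress-induced chromatin protein, at 0.813. Between CHAC1 and NUPR1 lay CTH (1.94), ALDH1L2 (1.93) and CBS (1.53). NUPR1 was scaled by a transcript of 5291 bases, and in CPM it (4.30) stood above CTH (4.05) and CBS (3.83). The 4 members CHAC1, CTH, CBS and NUPR1 averaged between 3 and 6 CPM before scaling by length, and their differences carry the widest errors.

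**Figure D1:**
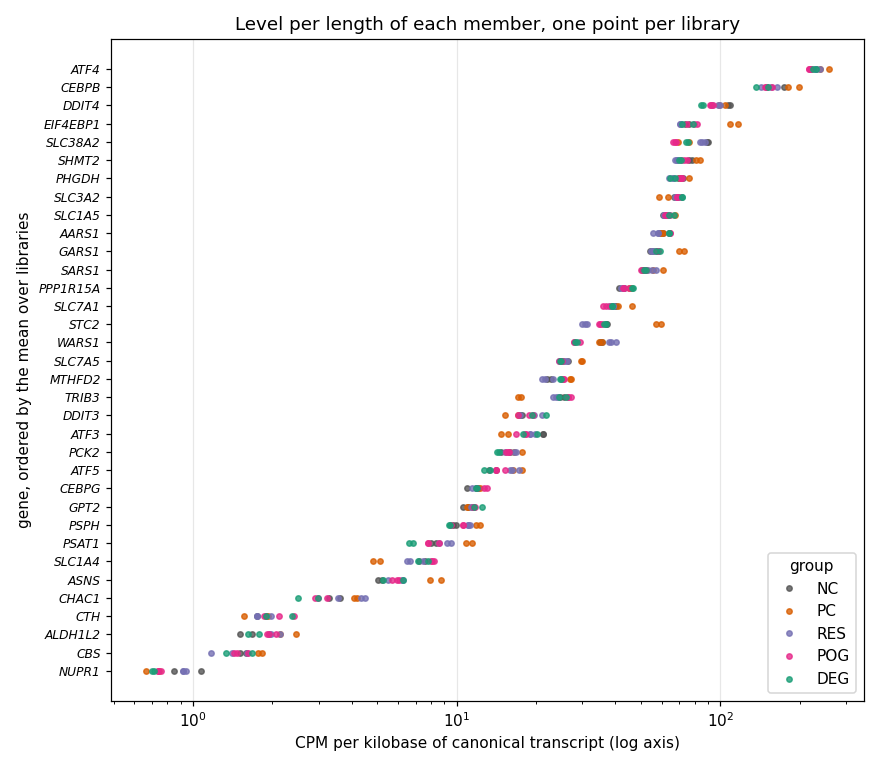
Level of each of the 34 genes in CPM per kilobase of its canonical transcript (log axis), with a point for each of the 12 libraries colored by group. ATF4 is at the top, with a mean of 230.3, and NUPR1 at the bottom, with 0.813, and for most genes the groups lie close together beside the differences between genes.

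The stretches below show where the members carry the element that ATF4 and C/EBP proteins are known to bind, and they are printed because members with the element moved in both directions or did not pass the test with serum. RefSeq windows (GRCh38.p14) from 250 bases before to 50 bases after an annotated start were at hand for 28 of the 34 members, 48 windows in all, since some genes have several starts. The letters TGATGNAA, searched on both strands, were found in a window of 10 of these 28 genes (35.7%), and in 4.46% of all 27305 genes with a window. The members had more windows per gene. Counted by window, 10 of their 48 windows held the letters, and 3.62% of all 35116 windows did. A match is a description of the letters and not of binding. Each stretch is 30 bases, 5′ to 3′ on the strand of the gene, with the match in capitals. Where the match lies on the other strand it reads as the reverse complement. ASNS (chr7:97872458-97872487, minus strand) and GARS1 (chr7:30594834-30594863, plus strand) were higher with serum. ATF3 (chr1:212565205-212565234, plus strand) and SLC1A4 (chr2:64989381-64989410, plus strand) were lower. AARS1 (chr16:70289675-70289704, minus strand) and CEBPG (chr19:33374060-33374089, plus strand) were not called.
ASNS: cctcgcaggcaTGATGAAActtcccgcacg
GARS1: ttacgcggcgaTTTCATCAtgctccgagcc
ATF3: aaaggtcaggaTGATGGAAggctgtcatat
SLC1A4: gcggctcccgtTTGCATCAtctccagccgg
AARS1: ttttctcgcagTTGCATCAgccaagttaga
CEBPG: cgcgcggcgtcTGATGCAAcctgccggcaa
The distances below are from the start of the RefSeq window that holds the match. Of the 6 stretches, 5 lie within the span that GENCODE gives the gene, whose outermost start is farther upstream, and ATF3 is the exception. The match begins 68 bases before the start of ASNS, 33 before that of GARS1, 191 before that of ATF3, 7 before that of SLC1A4, 187 before that of AARS1 and 42 before that of CEBPG. SLC7A1, CHAC1, SLC1A5 and SLC3A2 held a match as well. Of the 10 genes with a match, 3 were higher with serum, 3 were lower and 4 were not called. Called with serum were 67.6% of the 34 members, 42.4% of all tested genes and 57.1% of tested genes of at least 10 CPM. The cyclic AMP element TGACGTCA was found for 1 member, PPP1R15A, and in 2.25% of all genes, while the ER stress element was found for 0 members and in 0.0916% of all genes.

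The first comparison asked what serum changed in these genes. With serum, PSAT1 and PSPH of serine synthesis, the asparagine synthetase ASNS, the tRNA synthetases GARS1 and SARS1, STC2 and EIF4EBP1 were higher, while the feedback regulators ATF3 and TRIB3 and the transporters SLC1A4 and SLC38A2 were lower. As compared with NC, 17 of the 34 genes were higher in PC and 6 were lower (edgeR exact test, false discovery rate (FDR) under 0.05). That is 67.6% of the members, where 42.4% of all tested genes were called. Higher were 21.5% of all tested genes and lower 20.9%. The members were more abundant than most genes, with a median of 77.6 CPM against 17.5 for all tested genes, and among the 9912 genes of at least 10 CPM the share called was 57.1%, against 22 of the 30 members at that level. The median log2 fold change was 0.12 over the members and −0.01 over all tested genes. The changes were moderate, and 6 members were called with a change of at least 0.5 on the log2 scale (10.2% of all tested genes were).

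ASNS, the enzyme that makes asparagine, had the largest change. It stood at 12.1 and 12.4 CPM in NC, 18.9 and 20.8 in PC, 14.8, 13.1 and 14.9 in RES, 13.6, 14.4 and 14.2 in POG, and 14.95 and 12.5 in DEG. Both PC libraries lay above all others, and every library of the compounds lay above both NC libraries. With serum ASNS was 1.62-fold higher (log2 fold change 0.70, SE 0.0880, edgeR FDR 3.60e-14). Its rises with RES (0.23, edgeR FDR 0.0603), POG (0.20, edgeR FDR 0.0964) and DEG (0.17, edgeR FDR 0.303) did not pass.

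Among the genes of serine and one-carbon metabolism, 5 of 6 were higher with serum. ALDH1L2, a mitochondrial folate dehydrogenase, stood at 12.4 and 11.2 CPM in NC and 15.8 and 18.3 in PC, with RES at 15.9, 14.7 and 14.4, POG at 14.2, 15.4 and 14.5, and DEG at 12.0 and 13.2. The lowest PC library lay just below the highest RES library, and DEG overlapped NC. With serum it rose by 0.53 on the log2 scale (SE 0.0878, edgeR FDR 2.04e-08). PSAT1 and PSPH, which carry out the second and the last step of serine synthesis from glycolysis, rose by 0.45 and 0.30, and MTHFD2, a mitochondrial folate enzyme, rose by 0.27. SHMT2, which splits serine into glycine and a one-carbon unit, rose by 0.10, a call lost without PC replicate 1 (edgeR FDR 0.0753) or NC replicate 1 (0.225), when libraries were scaled by plain totals (0.259), with no filter (0.0895) and with dispersions from the groups compared (0.228). PHGDH, the first enzyme of the same serine pathway, had a log2 fold change of 0.05 with a 95% interval of −0.03 to 0.14 (edgeR FDR 0.348).

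Of the other amino acid enzymes besides ASNS, PCK2, the mitochondrial enzyme that makes phosphoenolpyruvate, rose by 0.17 (edgeR FDR 0.0166), a call lost without PC replicate 1 (edgeR FDR 0.180) or NC replicate 1 (0.267), with plain totals (0.0849) and with dispersions from the groups compared (0.0717). GPT2, an alanine transaminase, had a log2 fold change of 0.03 (edgeR FDR 0.728). CTH and CBS, the enzymes that turn homocysteine into cysteine, had −0.06 and 0.22 (edgeR FDR 0.830 and 0.273), and their intervals reached from −0.38 to 0.27 and from −0.10 to 0.53. CBS has a near-identical annotated copy in hg38, so its counts are uncertain.

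STC2, a secreted glycoprotein that ATF4 is known to induce, stood at 158 and 157 CPM in NC and at 253 and 242 in PC. RES was lowest, at 130, 128 and 133 CPM, while POG had 149, 148 and 151 and DEG 154 and 157. The PC libraries lay far above all others and the RES libraries below all others, while DEG overlapped NC. With serum STC2 was 1.57-fold higher (log2 fold change 0.65, SE 0.0350, edgeR FDR 2.02e-62).

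EIF4EBP1, which encodes a repressor of cap-dependent translation, had 63.2 and 60.8 CPM in NC, 96.7 and 89.9 in PC, 58.1, 58.9 and 58.2 in RES, 67.7, 65.9 and 61.8 in POG, and 65.0 and 59.5 in DEG. PC stood apart, and the other 4 groups spanned 58.1 to 67.7. It rose by 0.59 with serum (SE 0.0499, edgeR FDR 4.54e-28). PPP1R15A, which directs the phosphatase that reverses eIF2 phosphorylation, rose by 0.10 with serum (edgeR FDR 0.0371). That call was lost without PC replicate 1 (edgeR FDR 0.0660) or NC replicate 2 (0.271), with plain totals (0.255), with no filter (0.0941) and with dispersions from the groups compared (0.217). CHAC1 (0.27, edgeR FDR 0.0883) and DDIT4 (−0.08, edgeR FDR 0.0916) did not pass with serum.

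The regulators were split, with 3 of 8 higher with serum and 3 lower. ATF4 stood at 327 and 314 CPM in NC, 368 and 341 in PC, 339, 324 and 328 in RES, 314, 308 and 309 in POG, and 319 and 329 in DEG. Only the PC libraries lay above all others, and the groups without serum spanned 308 to 339. ATF4 rose by 0.15 with serum (SE 0.0353, edgeR FDR 0.00113), a call lost with dispersions from the groups compared (edgeR FDR 0.0610). Without PC replicate 1 the rise was 0.09. With RES (0.05), POG (−0.05) and DEG (0.02) it was not called, and the 95% intervals lay between −0.11 and 0.11. CEBPB rose by 0.23 with serum, with NC libraries at 320 and 277 CPM. That call was lost without NC replicate 2 (log2 fold change 0.13, edgeR FDR 0.140). ATF5, a related factor controlled in the same way as ATF4, rose by 0.31 (edgeR FDR 6.62e-06), and its exons overlap IL4I1 and NUP62 on the other strand.

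TRIB3, a pseudokinase that restrains ATF4, had 60.1 and 58.0 CPM in NC, 40.2 and 41.3 in PC, 57.4, 56.4 and 54.7 in RES, 64.0, 62.3 and 62.2 in POG, and 57.8 and 61.3 in DEG. Both PC libraries lay below all others. TRIB3 fell by 0.54 with serum (SE 0.0480, edgeR FDR 5.04e-25). ATF3, a stress-induced repressor, fell by 0.49 (edgeR FDR 1.10e-13), from a mean of 41.3 to 29.5 CPM. NUPR1 fell by 0.45 (edgeR FDR 0.00445), a call lost without PC replicate 1 (edgeR FDR 0.104) or NC replicate 1 (0.232), where the change was −0.27. DDIT3, the death-associated factor CHOP, was not called (−0.12, edgeR FDR 0.328), and its exons overlap MARS1 and MBD6 on the other strand. CEBPG, another partner of ATF4, was not called either (0.08, edgeR FDR 0.286).

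Among the transporters, 2 of 6 were higher with serum and 3 were lower. SLC1A4, which carries serine, alanine and other neutral amino acids, had 33.0 and 34.6 CPM in NC, 22.0 and 23.5 in PC, 30.5, 29.6 and 34.001 in RES, 37.5, 36.8 and 36.4 in POG, and 32.6 and 35.6 in DEG. PC lay below all other groups, and POG above them. SLC1A4 fell by 0.57 with serum (SE 0.0660, edgeR FDR 2.95e-16). SLC38A2, the main adaptive carrier of neutral amino acids, fell by 0.30 (edgeR FDR 3.83e-12). The 2 chains of the large neutral amino acid transporter went opposite ways. SLC7A5, the carrier chain, rose by 0.20 (edgeR FDR 1.32e-05), while SLC3A2, the chain that anchors it, fell by 0.16 (edgeR FDR 8.82e-04), a call lost without NC replicate 2 (edgeR FDR 0.0532), and without PC replicate 2 SLC3A2 had −0.10. SLC7A1, which carries arginine and lysine, rose by 0.13, and by 0.22 without PC replicate 1 and 0.05 without PC replicate 2. The SLC7A1 call was lost without PC replicate 2 (edgeR FDR 0.236) or NC replicate 1 (0.108), with plain totals (0.122) and with dispersions from the groups compared (0.131), and SLC1A5, a glutamine carrier, was not called (0.09, edgeR FDR 0.0896).

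Of the 4 tRNA synthetases among the members, GARS1 (glycine) rose by 0.38 with serum (edgeR FDR 8.62e-20) and SARS1 (serine) by 0.19 (edgeR FDR 2.01e-04). AARS1 (alanine) and WARS1 (tryptophan) had log2 fold changes of 0.01 and −0.01, with intervals of −0.06 to 0.08 and −0.09 to 0.08. Of 16 other cytosolic tRNA synthetases, 16 were higher with serum, with a median log2 fold change of 0.28 and the largest in FARSB (0.53) and VARS1 (0.53). Of 17 mitochondrial tRNA synthetases, 10 were higher, at a median of 0.26. The eIF2 kinases and their partners were mixed, with 4 of 14 higher and 3 lower. Among 19 ER chaperones and targets of ATF6 or XBP1, the other arms of the response to unfolded proteins, 2 were higher and 6 lower with serum, at a median of −0.05. Among 24 further genes of the ATF4 pathway, 9 were higher and 4 lower. VEGFA, an angiogenic factor that hypoxia also induces, rose by 1.20, and SLC7A11, which imports cystine, fell by 0.98. The shares of these other lists called, in the order given, were 100%, 58.8%, 50%, 42.1% and 54.2%, beside 42.4% of all tested genes. Of tested genes of at least 10 CPM, 57.1% were called.

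**Figure D2:**
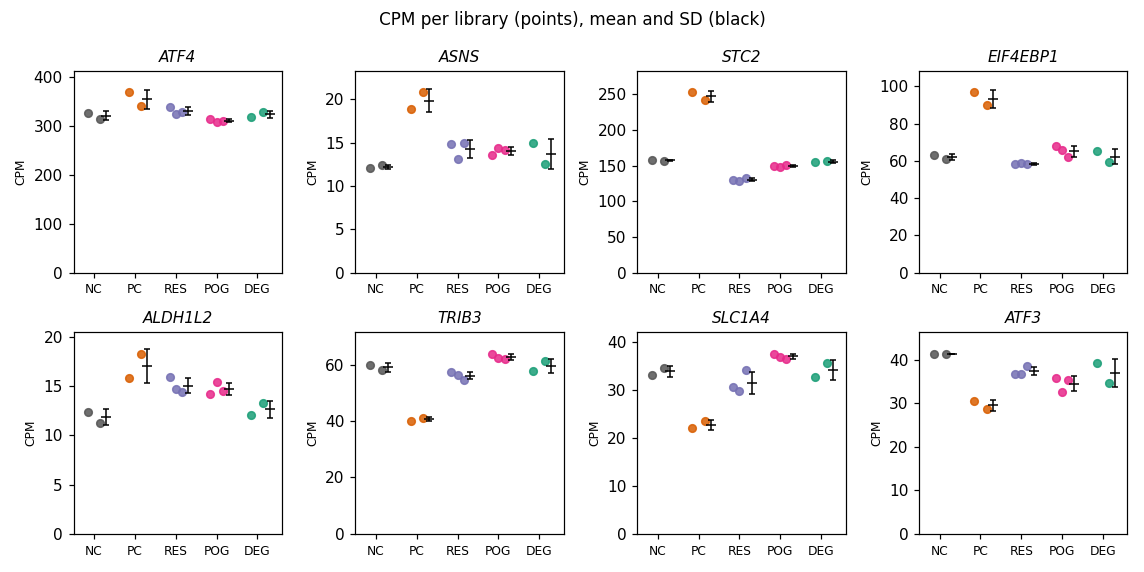
CPM in each library (points) with the group mean and SD (black) for ATF4, ASNS, STC2, EIF4EBP1, ALDH1L2, TRIB3, SLC1A4 and ATF3, on axes that start at 0. The PC libraries lie above NC in the first 5 panels and below NC in the last 3, and ATF4 shows the smallest shift of the 8 as a fold, from a mean of 320.4 to 354.4 CPM.

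The next comparisons asked how each compound changed these genes in serum-starved cells. All 3 share the NC libraries. RES raised 3 of 34 members and lowered 4 (20.6% called, where 11.2% of all tested genes were, 4.94% higher and 6.25% lower). POG raised 3 and lowered 6 (26.5%, against 14.6% of all genes, 5.98% higher and 8.6% lower), and DEG raised 3 and lowered 6 (26.5%, against 9.64%, 3.52% higher and 6.11% lower). The changes were small. Calls with a change of 0.5 or more on the log2 scale numbered 0 members in each comparison, where 1.43% of all tested genes had one with RES, 2.31% with POG and 1.5% with DEG. Among genes of at least 10 CPM the shares called were 15.8%, 20.1% and 13.8%, against 23.3%, 26.7% and 26.7% of the 30 members at that level. Over the members the median log2 fold change with RES, POG and DEG stood at 0.0046, 0.03 and −0.0044, beside 0.0011, 0.0023 and 8.3e-04 over all tested genes. With plain totals in place of TMM, 6 members were higher and 3 lower with RES, 6 higher and 5 lower with POG, and 4 higher and 6 lower with DEG. All genes shifted in the same direction. Of all genes called, 64%, 56% and 49.4% were then higher with RES, POG and DEG, against 44.1%, 41% and 36.6% with TMM.

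The members with the clearest changes were SLC38A2, WARS1 and DDIT4, which are given by library here because their values stood out. SLC38A2 had 430 and 427 CPM in NC, 332 and 365 in PC, 420, 401 and 408 in RES, 324, 317 and 326 in POG, and 355 and 363 in DEG. POG was lowest, DEG lay above it, and RES lay close below NC, with no overlap among NC and the compounds. As compared with NC, SLC38A2 fell by 0.41 with POG (SE 0.0326, edgeR FDR 3.92e-26) and by 0.26 with DEG (SE 0.0358, edgeR FDR 4.36e-08). The RES libraries gave −0.06 and no call (edgeR FDR 0.291).

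WARS1, which charges tRNA with tryptophan and is also known as a gene induced by interferon gamma, had 92.5 and 94.3 CPM in NC, 91.9 and 94.1 in PC, 100.2, 102 and 106 in RES, 73.7, 77.5 and 73.7 in POG, and 74.1 and 75.8 in DEG. The 2 control groups coincided, RES lay above them, and POG and DEG lay below them at the same level. WARS1 fell by 0.32 with POG (SE 0.0387, edgeR FDR 1.15e-12) and by 0.32 with DEG (SE 0.0429, edgeR FDR 4.36e-10). It rose by 0.14 with RES (edgeR FDR 0.0106), a call lost without NC replicate 1 (edgeR FDR 0.195), NC replicate 2 (0.0651) or RES replicate 3 (0.0963). Its exons overlap WDR25 on the other strand. Of the 16 other cytosolic tRNA synthetases, 3 were higher and 1 lower with POG, and 1 was higher with DEG. That is 25% and 6.25%, where 14.6% and 9.64% of all tested genes were called, and 11.2% with RES. With RES 0 of the 16 were called by the edgeR exact test, the quasi-likelihood test or DESeq2. An unadjusted exact test p under 0.05 was found with RES for 2 of them. EPRS1 (glutamate and proline) rose by 0.22 with POG and by 0.16 with DEG, the direction opposite to that of WARS1.

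DDIT4, also called REDD1, had 186 and 190 CPM in NC, 183 and 172 in PC, 174, 163 and 171 in RES, 160, 164 and 159 in POG, and 147 and 150 in DEG. DEG was lowest, and every library of the 3 compounds lay below NC. DDIT4 fell by 0.15 with RES (SE 0.0344, edgeR FDR 0.00141), by 0.22 with POG (SE 0.0344, edgeR FDR 2.19e-07) and by 0.34 with DEG (SE 0.0381, edgeR FDR 9.41e-14). Leaving out NC replicate 2 ended the call with RES (edgeR FDR 0.0886).

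With RES, STC2 fell by 0.27 (SE 0.0327, edgeR FDR 1.05e-11), the direction opposite to that with serum. SHMT2 fell by 0.18 (edgeR FDR 3.04e-05), and PHGDH fell by 0.11 (edgeR FDR 0.0469), a call lost in 9 of 12 alternatives (edgeR FDR 0.0511 to 0.485). These include leaving out each RES and NC library in turn, with 0.485 and 0.0888 without NC replicates 1 and 2 and 0.0844, 0.179 and 0.0878 without RES replicates 1, 2 and 3. ALDH1L2 rose by 0.34 (edgeR FDR 8.71e-04), a call lost without NC replicate 2 (edgeR FDR 0.109), and ATF5 rose by 0.27 (edgeR FDR 2.05e-04).

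With POG, ALDH1L2 rose by 0.31 (edgeR FDR 0.0023) and MTHFD2 by 0.18 (edgeR FDR 2.94e-04), and without NC replicate 2 both calls were lost (edgeR FDR 0.152 and 0.0565). ATF3 fell by 0.26 (edgeR FDR 8.84e-05). NUPR1 (−0.37, edgeR FDR 0.0324), SLC7A1 (−0.11, edgeR FDR 0.0476) and AARS1 (0.10, edgeR FDR 0.0246) were called near the threshold. Without NC replicate 1 their edgeR FDRs were 0.606, 0.174 and 0.0811, and the change of NUPR1 was −0.18. Each call was also lost with no filter (0.0708, 0.0787 and 0.0633), without POG replicate 1 (0.0630, 0.215 and 0.0840) and without POG replicate 3 (0.0841, 0.140 and 0.0893). Without POG replicate 2 NUPR1 (0.0772) and AARS1 (0.0596) were lost, and without NC replicate 2 SLC7A1 (0.314) and AARS1 (0.274). NUPR1 was not called by the quasi-likelihood test (0.0536) or DESeq2 (0.0787), and SLC7A1 was not called with plain totals (0.155) or DESeq2 (0.05001).

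With DEG, PSAT1 fell by 0.28 (edgeR FDR 0.00795) from 17.7 and 18.4 CPM in NC to 14.6 and 15.1, and the call was lost without NC replicate 2 (edgeR FDR 0.139) or DEG replicate 1 (0.133). SHMT2 fell by 0.13, NUPR1 fell by 0.44, MTHFD2 rose by 0.15, GPT2 by 0.16 and PPP1R15A by 0.13, with edgeR FDRs of 0.0149, 0.0291, 0.0184, 0.0266 and 0.0263. Without DEG replicate 2 those 5 calls were lost, at 0.0674, 0.169, 0.153, 0.420 and 0.154 in the same order. Without DEG replicate 1 the calls of SHMT2 (0.239), NUPR1 (0.152), MTHFD2 (0.130) and PPP1R15A (0.192) were lost. Without NC replicate 1 those of SHMT2 (0.0594), NUPR1 (0.514, log2 fold change −0.26), GPT2 (0.0545) and PPP1R15A (0.0523) were lost, and without NC replicate 2 those of SHMT2 (0.231), MTHFD2 (0.259), GPT2 (0.291) and PPP1R15A (0.310). With no filter SHMT2 (0.0610), NUPR1 (0.0594), GPT2 (0.0761) and PPP1R15A (0.0722) were not called, and NUPR1 was called by neither the quasi-likelihood test (0.0523) nor DESeq2 (0.0748). SHMT2 overlaps NDUFA4L2 and MTHFD2 overlaps SLC4A5 on the other strand.

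**Figure D3:**
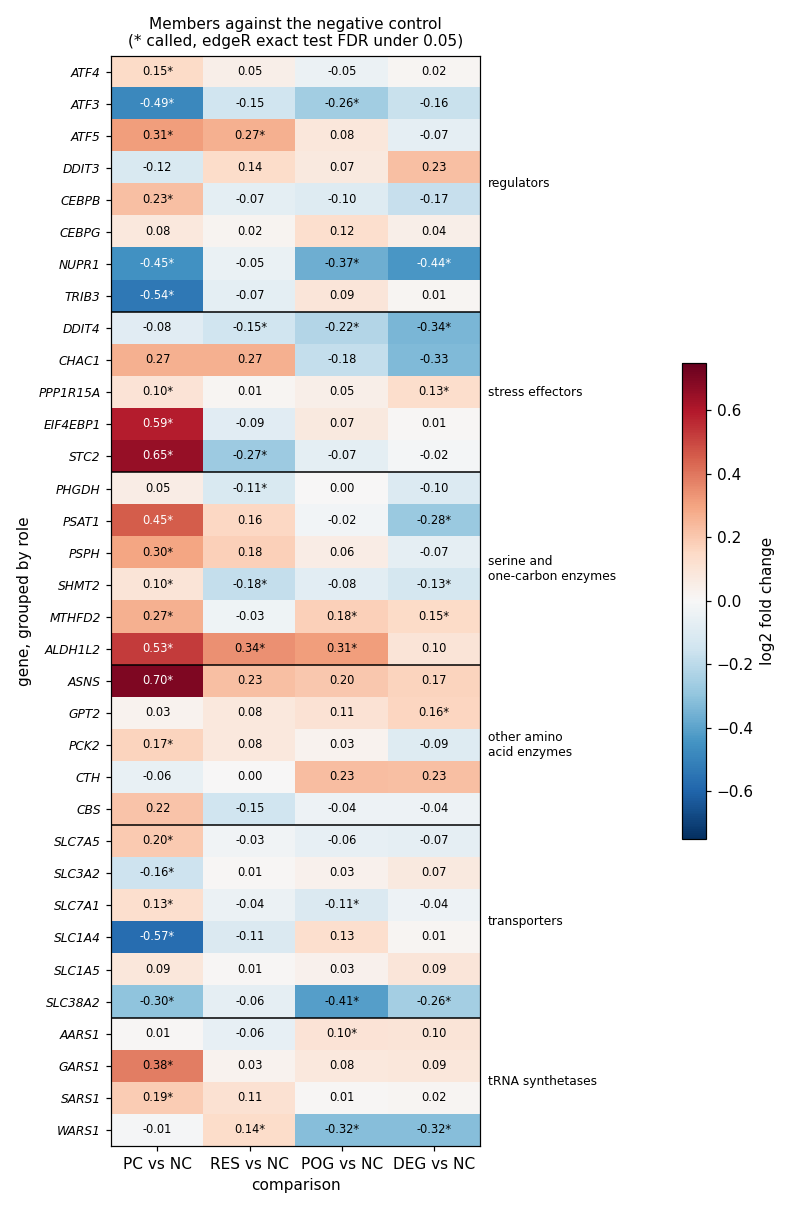
Log2 fold change of each of the 34 genes against NC for PC, RES, POG and DEG, with the value in each cell, genes grouped by role, and an asterisk where the edgeR exact test called the gene (FDR under 0.05). The serum column holds the strongest colors, from −0.57 (SLC1A4) to 0.70 (ASNS), and in the compound columns the strongest called values are −0.44 (NUPR1 with DEG) and 0.34 (ALDH1L2 with RES).

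Outside the members, of 24 further genes of the ATF4 pathway 3 were higher and 4 lower with RES, 6 higher and 6 lower with POG, and 3 higher and 3 lower with DEG (29.2%, 50% and 25% called, where 11.2%, 14.6% and 9.64% of all tested genes were). SLC7A11 fell by 0.56 and JDP2, a repressor of the AP-1 family, rose by 0.51 with RES. SLC6A9, a glycine carrier, fell by 0.79 with POG and by 0.71 with DEG. GRB10, an adaptor that dampens insulin receptor signaling, fell by 0.42 with POG. Of 14 eIF2 kinases and partners, 4 were lower with RES, among them the eIF2B subunits EIF2B5 (−0.17) and EIF2B4 (−0.16). With POG 1 was higher, the heme-sensing kinase EIF2AK1 (0.10), and with DEG 0 were called by the edgeR exact test, the quasi-likelihood test or DESeq2, while 5 had an unadjusted exact test p under 0.05. Of 19 ER chaperones and targets, 2 were lower with RES (CRELD2 and HYOU1), 2 higher with POG (MANF and HSP90B1) and 1 higher with DEG (HSP90B1). Called with RES, POG and DEG were 28.6%, 7.14% and 0% of the eIF2 list and 10.5%, 10.5% and 5.26% of the ER list. The shares of all tested genes were 11.2%, 14.6% and 9.64%.

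The last comparisons set the compounds against each other at the same dose of 1 µg/mL, in 3 pairs over all genes. The comparisons of POG and DEG with RES share the RES libraries. POG differed from RES in 16 of 34 members, 8 higher and 8 lower (47.1%, where 27.9% of all tested genes were called, 13.7% higher and 14.1% lower). DEG differed from RES in 14, with 4 higher and 10 lower (41.2%, against 21.2%, 10.4% higher and 10.9% lower). DEG differed from POG in 2, 1 higher and 1 lower (5.88%, against 1.07%, 0.573% higher and 0.497% lower). Among genes of at least 10 CPM the shares called were 37.7%, 29% and 1.58%, against 46.7%, 40% and 6.67% of the 30 members at that level. Calls with a change of at least 0.5 were 0, 1 and 0 members in these comparisons, beside 4.15%, 3.28% and 0.111% of all tested genes.

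Between POG and RES the largest differences were in WARS1 (−0.46, SE 0.0342, edgeR FDR 1.11e-33), CHAC1 (−0.44, SE 0.107, edgeR FDR 2.94e-04) and SLC38A2 (−0.35, SE 0.0291, edgeR FDR 3.15e-23). CHAC1 had 5.47 and 5.002 CPM in NC, 6.62, 6.86 and 5.41 in RES, 4.42, 4.92 and 4.54 in POG, and 4.54 and 3.79 in DEG. RES overlapped NC while POG and DEG lay below both. CHAC1 was not called against NC with RES (0.27, edgeR FDR 0.156), POG (−0.18, edgeR FDR 0.389) or DEG (−0.33, edgeR FDR 0.138), but RES and the other 2 compounds differed directly. The difference of DEG from RES in CHAC1 was the 1 call between compounds that reached 0.5 (−0.60, SE 0.126, edgeR FDR 4.48e-05).

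Higher in POG than in RES were SLC1A4 (0.23), MTHFD2 (0.21), STC2 (0.20), AARS1 (0.17), TRIB3 (0.16), EIF4EBP1 (0.16), PHGDH (0.12) and SHMT2 (0.10). Lower were ATF5 (−0.18), PSAT1 (−0.18), NUPR1 (−0.32), SARS1 (−0.10) and ATF4 (−0.09, edgeR FDR 0.0245). The ATF4 call was lost without RES replicate 1 (edgeR FDR 0.160) or 3 (0.0535), without POG replicate 1 (0.0510), 2 (0.0974) or 3 (0.0905), and with no filter (0.0546). PSAT1 was lost without RES replicate 2 (0.114) or 3 (0.0639) and without POG replicate 1 (0.0997) or 3 (0.0911). SARS1 was lost without RES replicate 1 (0.0653) or 3 (0.169) and without POG replicate 2 (0.143). NUPR1 was lost without RES replicate 1 (0.0655), POG replicate 2 (0.0613) or POG replicate 3 (0.0650) and with DESeq2 (0.0583). PHGDH was lost without RES replicate 2 (0.0540), and SHMT2 without POG replicate 2 (0.0904). PSPH was not called (−0.12, edgeR FDR 0.088), so that among the enzymes of serine synthesis and use PHGDH and SHMT2 were higher in POG and PSAT1 was lower.

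DEG was lower than RES in WARS1 (−0.46), PSAT1 (−0.44), NUPR1 (−0.39), ATF5 (−0.34), PSPH (−0.25), ALDH1L2 (−0.25), SLC38A2 (−0.19), DDIT4 (−0.19) and PCK2 (−0.17) besides CHAC1. It was higher in STC2 (0.26), MTHFD2 (0.18), AARS1 (0.16) and PPP1R15A (0.12). Among the genes of serine and one-carbon metabolism, 3 of 6 were lower and 1 higher in DEG than in RES. Leaving out DEG replicate 1 ended the calls of NUPR1 (edgeR FDR 0.115), ALDH1L2 (0.304), PCK2 (0.161) and PPP1R15A (0.132), and leaving out DEG replicate 2 those of NUPR1 (0.145), PCK2 (0.0729) and PPP1R15A (0.105). Without RES replicate 1 ALDH1L2 (0.0986) and PPP1R15A (0.0694) were lost, and PCK2 was lost without RES replicate 2 (0.0594) or 3 (0.0800). NUPR1 was not called by DESeq2 (0.0524), nor PPP1R15A with no filter (0.0501).

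POG and DEG differed in SLC38A2, which was higher in DEG (0.16, SE 0.0328, edgeR FDR 0.00709), and in PSAT1, which was lower in DEG (−0.26, SE 0.0706, edgeR FDR 0.0356). Both calls were lost without DEG replicate 1 (edgeR FDR 0.0948 for SLC38A2 and 0.416 for PSAT1), DEG replicate 2 (0.332 and 0.247) or POG replicate 2 (0.0938 and 0.272). The PSAT1 call was also lost without POG replicate 1 (0.0552) or 3 (0.0598), with the quasi-likelihood test (0.0952), with DESeq2 (0.0933) and with no filter (0.0649). The other 32 members were not called, which does not show that the compounds act alike. Their 95% intervals, not adjusted for the number of genes, lay within −0.42 (CHAC1) and 0.32 (DDIT3) on the log2 scale, and for WARS1 the interval was −0.08 to 0.08.

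**Figure D4:**
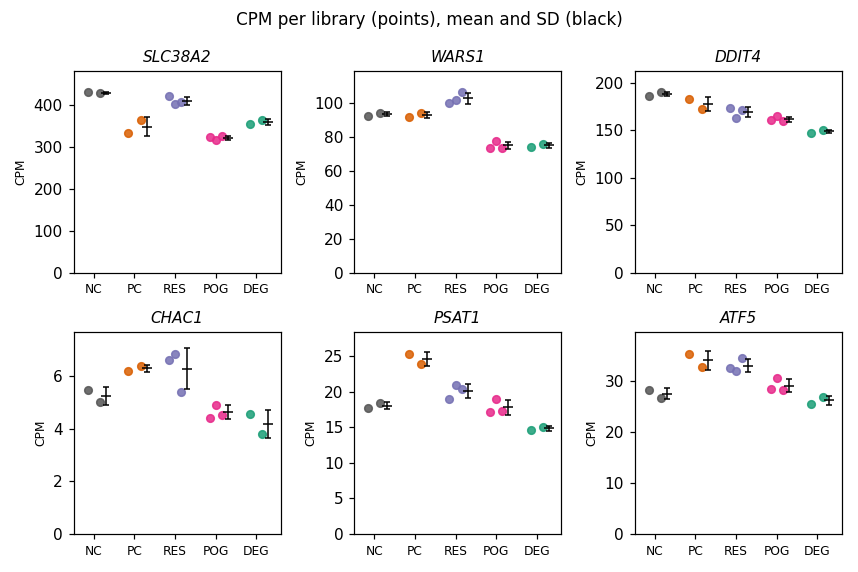
CPM in each library (points) with the group mean and SD (black) for SLC38A2, WARS1, DDIT4, CHAC1, PSAT1 and ATF5, on axes that start at 0. In the WARS1 panel RES lies at 100.2 CPM or above and POG and DEG at 77.5 CPM or below, with the controls between them.

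**Figure D5:**
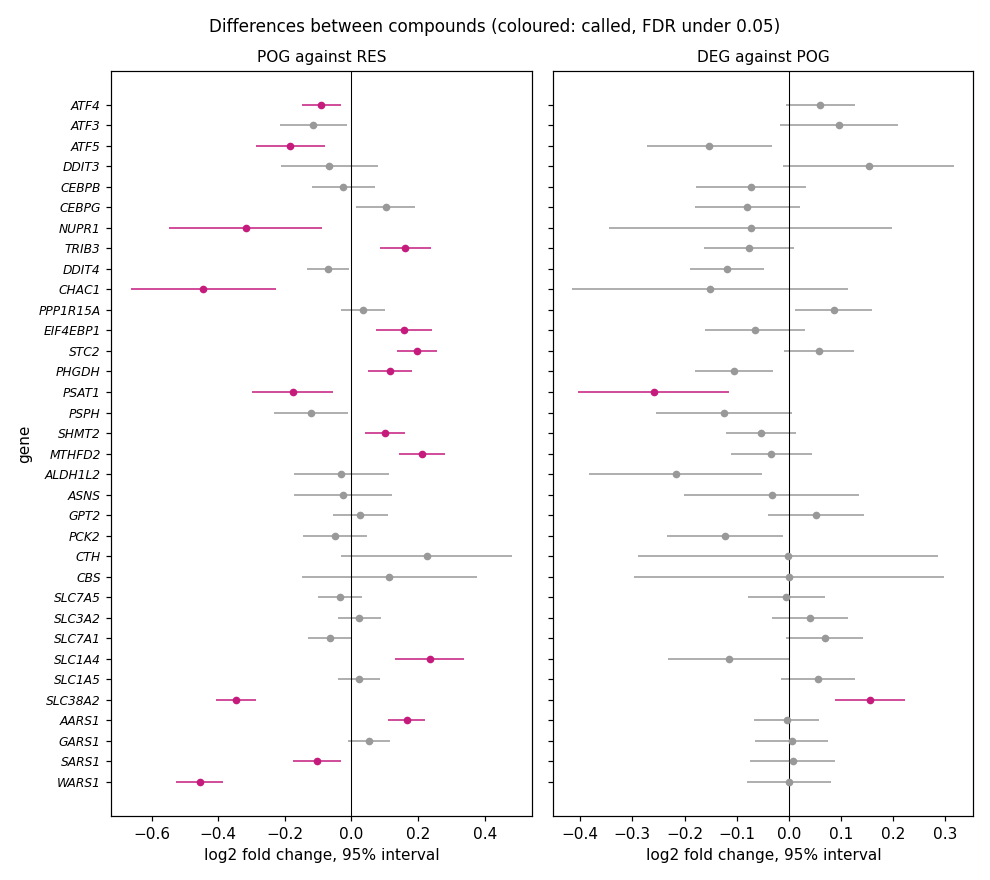
Log2 fold change (points) with its 95% interval (lines) for each of the 34 genes, for POG against RES on the left and DEG against POG on the right, colored where the edgeR exact test called the gene (FDR under 0.05). On the left 16 genes are colored, from −0.46 (WARS1) to 0.23 (SLC1A4), and on the right 2 genes are colored, PSAT1 and SLC38A2.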

How the data were processed

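Raw read counts per Ensembl gene were deposited by the authors as 1 table that was not normalized. Their methods name FastQC for read quality, STAR (and also BWA MEM) for alignment to hg38, and featureCounts for the counting. Versions, annotation, strand setting and handling of multi-mapped reads are not given in the sources used here. Members whose exons overlap a gene on the other strand therefore carry uncertain counts, among them ALDH1L2, which overlaps NOPCHAP1 and WASHC4. The exons of ASNS, NUPR1 and DDIT3 also overlap a gene without a symbol on the same strand, so their counts are uncertain too. Of 13 labelled samples 12 had a column, while the design written beforehand counted on 13. Columns of no labelled sample numbered 0. Replicate numbers follow accession order and are names only. Whether libraries of a group came from separate cultures was not stated beyond triplicate wells, so p-values measure the spread between these libraries.

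Genes were filtered with filterByExpr by group, libraries were scaled by TMM, dispersions came from all 12 libraries (biological coefficient of variation 3.20%), and groups were compared with the exact test of edgeR 4.0.16 in R 4.3.3, the test the study names. FDRs were adjusted by Benjamini and Hochberg over 17092 genes, and a gene was called at an FDR under 0.05. Standard errors and 95% intervals came from the quasi-likelihood fit. In simulated counts of 17092 genes, a small set of well-counted genes was changed by 0.5 or 1 on the log2 scale. For PC against NC the test recovered 97% of changes of 0.5 and called 12 unchanged genes. For RES, POG and DEG against NC it recovered 97%, 98% and 96% and called 21, 18 and 25. Because few genes were changed, the unchanged genes called were a larger share of all calls than of the 17092 genes. That share of calls is not given here. Smaller changes, and changes in genes with few reads, were not simulated. Recovery of the compound changes against NC, all below 0.5 among the members, is therefore not shown. Levels per kilobase used the canonical transcript in GENCODE v44 (hg38). Promoter letters were searched in RefSeq windows.

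The members and the other lists were chosen with earlier results of these data known. Values by library were given for members called against NC with a log2 change of at least 0.5, for ATF4 and for ASNS. SLC38A2, WARS1, DDIT4, CHAC1 and PSAT1, and the limit of 10 CPM, were chosen after the values were seen. From each other list at most the 2 largest called changes in a comparison were named. The comparisons were repeated with each library left out in turn, and with DESeq2 1.42.0, the quasi-likelihood test of edgeR, other scalings, filters and thresholds, and dispersions from the groups compared. The values of 1 marker of other cell types are not reported here.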

Additional observations from a re-analysis of the deposited data

How the results depend on the processing

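No call of a member reversed in any alternative run. Of the calls, 15 of 23 (PC), 3 of 7 (RES), 4 of 9 (POG) and 3 of 9 (DEG) against NC, 10 of 16 (POG) and 10 of 14 (DEG) against RES, and 0 of 2 for DEG against POG were kept in every alternative. When each library was left out in turn, the number of members called ranged from 19 to 24 for PC, 3 to 8 for RES, 6 to 7 for POG and 4 to 6 for DEG against NC, from 12 to 15 for POG and 10 to 14 for DEG against RES, and from 0 to 1 for DEG against POG. Leaving out NC replicate 2 gave the 3 calls with RES. With DEG, 5 calls were left without NC replicate 1 or NC replicate 2, 6 without DEG replicate 1 and 4 without DEG replicate 2. For DEG against POG, 1 call was left without POG replicate 1 or 3, and 0 without POG replicate 2, DEG replicate 1 or DEG replicate 2. With dispersions from the groups compared, the calls numbered 11 for RES, 16 for POG and 15 for DEG against NC and 6 for DEG against POG. For DEG against POG the quasi-likelihood test, DESeq2, no filter and an FDR under 0.01 each gave 1 call, and an FDR under 0.01 gave 4 for DEG against NC. The share of all genes called in each of these runs is not given here. From these counts alone, a shift of the members can therefore not be told from a shift of all genes. With a change of at least 0.5 on the log2 scale required, 6 members were called for PC, 0 for RES, 0 for POG and 0 for DEG against NC, 0 for POG and 1 for DEG against RES, and 0 for DEG against POG. Plain totals moved the median of all genes by at most 0.043 on the log2 scale and gave 13 higher and 7 lower members with serum. Of all genes called with serum, 41% were then higher, against 50.6% with TMM. The causes of these shifts were not tested. No paired analysis was possible because the labels give the groups no shared replicate numbers. The groups held 2 or 3 libraries, which limits how small a change could be called.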
